A study of Mus musculus with 10 samples.

Results

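Nrip1, a corepressor gene that lies in the duplicated segment of Dp3Yah mice, was examined in the hippocampus together with the corepressor gene Ncor1 and the nuclear receptor genes Nr3c1, Nr3c2, Esr1, Rara, Rxra, Thra and Thrb. The 9 genes were chosen by name, and each was represented by a probe set annotated to 1 gene, the one with the highest mean where there were several. Of these 9 genes, 8 were measured among 19938 genes in all, and Ncor1 was not analysed here. Hippocampal RNA was taken from 5 Dp3Yah mice and 5 control mice, all male and 16 weeks old, with 1 array for each mouse and the right and left hippocampi together. Dp3Yah mice carry an engineered tandem duplication of the stretch of chromosome 16 that runs from Hspa13 to App, so that the genes inside it are present in 3 copies, whereas control littermates have 2 copies. App, at the end of the duplication, keeps 2 functional copies. The duplication is carried in the germ line and so in every cell type, and the line is on a C57BL/6 background, given as C57BL/6N in the sample labels and as C57BL/6J in the methods. The labels call the mice of a group biological replicates. No receptor among the members lies in the duplicated segment, and each is therefore present in 2 copies in both groups.

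Nuclear receptors are transcription factors that are switched by small lipophilic hormones. The glucocorticoid receptor (Nr3c1), the mineralocorticoid receptor (Nr3c2), the oestrogen receptor alpha (Esr1), the thyroid hormone receptors (Thra, Thrb) and the retinoid receptors (Rara, Rxra) work through coactivators and corepressors that open or close chromatin at their target genes. The hippocampus is known for its high content of both corticosteroid receptors, which set the response of its neurons to stress hormone, and thyroid hormone is needed for its development. NRIP1, also called RIP140, is recruited by many ligand-bound receptors and represses their targets by bringing in histone deacetylases. NCOR1 acts with the receptors for thyroid hormone and retinoic acid when these carry no hormone.

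Nrip1 was located at chr16:76287403-76373827 (GRCm38.p6), on the minus strand. RefSeq listed 2 transcription starts for it, and the 250 bases before each are shown because this is the member whose own promoters are duplicated. Neither start region, taken with its first 50 transcribed bases, held a match on either strand to the receptor motifs searched for.
Nrip1, outer start, chr16:76373828-76374077, minus strand: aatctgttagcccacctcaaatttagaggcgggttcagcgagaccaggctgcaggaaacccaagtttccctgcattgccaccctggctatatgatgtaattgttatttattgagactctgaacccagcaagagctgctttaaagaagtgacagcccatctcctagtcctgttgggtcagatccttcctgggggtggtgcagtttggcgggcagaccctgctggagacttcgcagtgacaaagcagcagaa
Nrip1, inner start, chr16:76373050-76373299, minus strand: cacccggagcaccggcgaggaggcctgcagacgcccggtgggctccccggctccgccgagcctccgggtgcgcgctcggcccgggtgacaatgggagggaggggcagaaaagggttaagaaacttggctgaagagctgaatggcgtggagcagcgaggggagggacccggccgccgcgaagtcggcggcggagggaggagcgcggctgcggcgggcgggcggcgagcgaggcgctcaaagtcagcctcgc
The outer window of 300 bases had a GC content of 52.7% and the inner one 73.3%. The core motif AGGTCA, shared by receptors for thyroid hormone, retinoids and oestrogen, was found in 3 of the 15 RefSeq windows of 7 member genes (1 each of Rara, Rxra and Thrb), and in 16.3% of all 32851 mouse windows of the same length. The corticosteroid core motif AGAACA was found in 2 of the 15 windows (Ncor1 and Thrb) and in 19.0% of all windows. No member window held AGGTCA as an inverted repeat with a spacer of 3 bases, the oestrogen response element, which 0.0213% of all windows carry. None held it as a direct repeat with a spacer of 4 bases (0.0152% of all windows), the thyroid hormone response element, or of 5 bases (0.00913%), the retinoic acid response element, and none held the inverted repeat of AGAACA with a spacer of 3 bases (0.00913%), the corticosteroid response element. Each repeat contains its core motif. These matches describe the letters only.

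The 10 arrays had medians of 5.64 to 5.71 on the log2 scale. Markers of the hippocampal fields were present. Above the median level of all genes were 11 of 12 dentate granule cell markers, 7 of 8 measured CA1 markers and 6 of 9 CA2 and CA3 markers. Of the neocortex and subiculum markers, 9 of 10 were above it as well. Choroid plexus markers averaged 5.99 to 7.62 in Dp3Yah mice and 5.93 to 7.75 in control mice and were high in 5 arrays, of Dp3Yah mice 1, 2 and 5 and control mice 1 and 5. Microglial markers averaged 7.67 to 7.87 in Dp3Yah mice and 7.56 to 7.66 in control mice, a difference of 0.11 without overlap (exact permutation test, two-sided, p = 0.00794, the smallest that 5 against 5 allows). All 9 measured microglial markers had a positive difference and 0 passed the limma test. This was the smallest p of all the marker lists compared, with no adjustment. Larger differences, with overlapping groups, were those of CA1 markers (0.14, p = 0.135), dentate granule cell markers (-0.13, p = 0.0873) and choroid plexus markers (0.12, p = 0.944), by the same permutation test. Dp3Yah mouse 2 stood apart on the first principal component, which held 26.2% of the variance, and it had the highest or the lowest value of its group for 5 of the 8 members. Control mouse 2 was the lowest array on that component, at -10.4 against 17.2 for Dp3Yah mouse 2, but close to Dp3Yah mouse 3 at -9.1. Control mouse 2 had the highest or the lowest value of its group for 7 of the 8 members.

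Nrip1 was measured higher in Dp3Yah hippocampi, by 0.38 on the log2 scale or 1.3-fold, but it did not pass the test after adjustment over all genes. The log2 values were 8.45, 8.71, 8.43, 8.37 and 8.25 in the Dp3Yah mice, against 8.25, 8.27, 8.03, 7.85 and 7.89 in the control mice. Dp3Yah mice 1 to 4 were above every control mouse, whereas Dp3Yah mouse 5 lay at the level of control mice 1 and 2, so the groups overlapped in their lower and upper ends. The means were 8.44 ± 0.172 in Dp3Yah mice and 8.06 ± 0.198 in control mice (SD, n = 5 each), with a standard error of 0.0991 for the difference and a 95% interval of 0.17 to 0.6, that is 1.12- to 1.51-fold. The limma test gave an unadjusted p of 0.00208 and a Benjamini-Hochberg adjusted p of 0.922 over the 19938 genes. An exact permutation test on Nrip1 alone, two-sided and not adjusted, gave p = 0.0238.

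Of the 8 measured members, 0 passed an adjusted p of 0.05 in limma, where 3 of all genes did, a share of 0.015%. Nrip1 was the only member with an unadjusted p under 0.05, beside 5.08% of all genes, and the only member past the threshold of a rank test of fold changes, with an f value of 0.998, beside 2.54% of all genes on the higher side. The f value runs between 0 and 1 and places a gene relative to all genes on a normal curve. It comes from the gene's mean rank over the pairings of a Dp3Yah array with a control array, after the highest and lowest ranks are trimmed. A gene can therefore have an extreme f value although its groups overlap. At least 4 Dp3Yah mice lay above every control mouse for 2.45% of all genes, and all 5 did so for 0.522%. Of the markers given above, those of microglia differed between the groups in the same direction as Nrip1, as did, with overlap, those of CA1 and choroid plexus. Dentate granule cell markers differed in the opposite direction, also with overlap. With the choroid plexus markers as a covariate the difference of Nrip1 was 0.381 (limma adjusted p = 0.9), against 0.383 without it. The part of the microglial, CA1 and dentate granule cell markers in the result was not tested. In whole hippocampus, more cells of a type and more RNA per cell cannot be told apart.

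**Figure D1:**
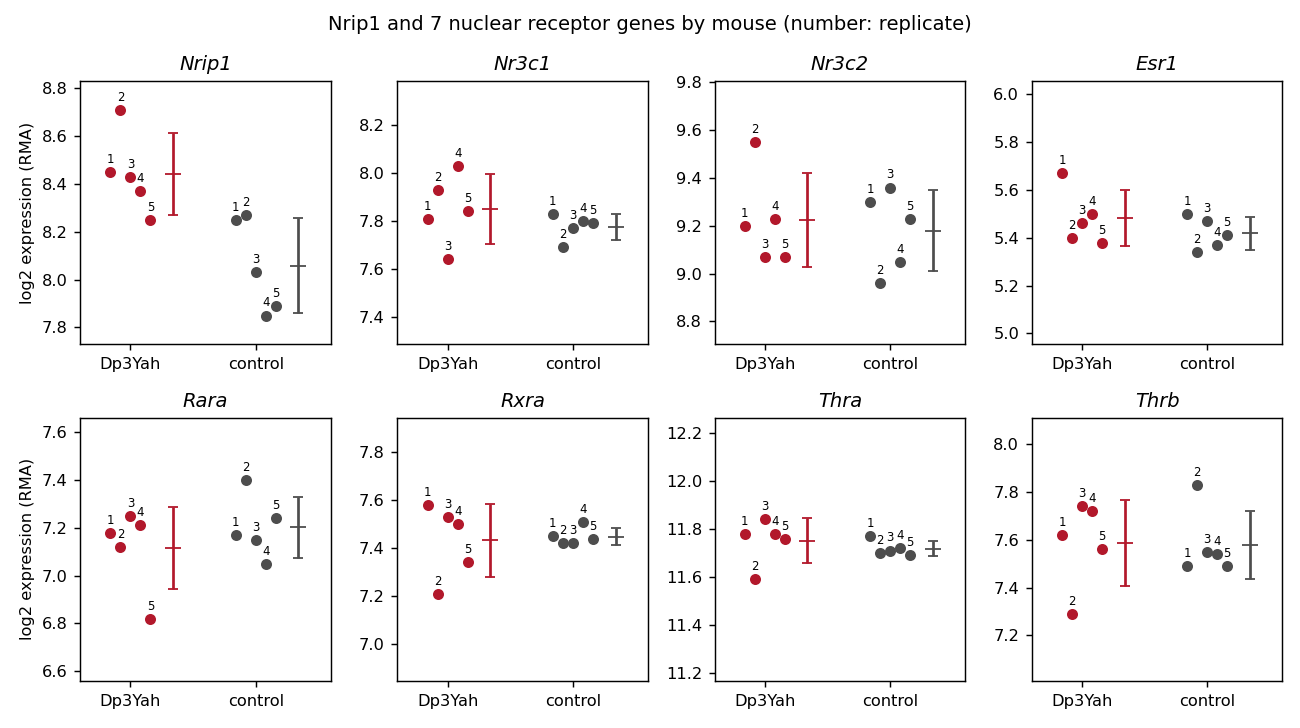
Log2 expression (RMA values) of Nrip1 and the 7 measured receptor genes in each mouse, one panel per gene with its own range, all panels spanning the same number of log2 units. Points are single mice numbered by replicate, Dp3Yah in red and control in grey, with the mean and SD beside them; Nrip1 has 4 Dp3Yah points above every control point and the other panels show overlapping groups.

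Nrip1 was then set beside the other genes in 3 copies. Of the 17 measured genes of the duplicated segment, 9 were above the median level of all genes, Nrip1 and 8 others. The changes of the 8 others lay between 0.28 (Atp5j, a subunit of the mitochondrial ATP synthase) and 0.60 (Hspa13, an HSP70-family protein), with a median of 0.46. Nrip1 came seventh of the 9 by size of change, ahead of Usp25, a deubiquitinase, at 0.36 and Atp5j. For each of the 8 others every Dp3Yah mouse was above every control mouse, which was not so for Nrip1. The measured segment genes below the median level changed by -0.01 (Mir155) to 0.24 (Mir99a). Among them Samsn1 (0.2) and Cxadr (0.22) had 4 Dp3Yah mice above every control mouse, as Nrip1 had, and the rest had fewer. The standard errors of the 8 others were 0.046 to 0.0868, all smaller than that of Nrip1. Hspa13, Ncam2 (a neural adhesion molecule) and Mrpl39 (a mitochondrial ribosomal protein) were the genes with an adjusted p under 0.05 in limma, at 0.0122, 0.0122 and 0.00336. Without any 1 of Dp3Yah mouse 4 and control mice 3, 4 and 5, Mrpl39 alone passed, and without Dp3Yah mouse 5 Ncam2 did not.

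The difference between Nrip1 and the mean of the 8 others was computed within each mouse. It was -0.88 ± 0.199 in Dp3Yah mice and -0.80 ± 0.178 in control mice (SD, n = 5 each), so the change of Nrip1 was 0.08 below the mean change of its neighbours. The 95% interval of -0.35 to 0.2 included 0, and the exact permutation test over all groupings of the mice, two-sided, gave p = 0.548. At this spread an increase of Nrip1 below that of its neighbours could not be told from an equal one. The value for 3 copies against 2, with output in proportion to copies, is 0.58 on the log2 scale, which lay within the interval of Nrip1.

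**Figure D2:**
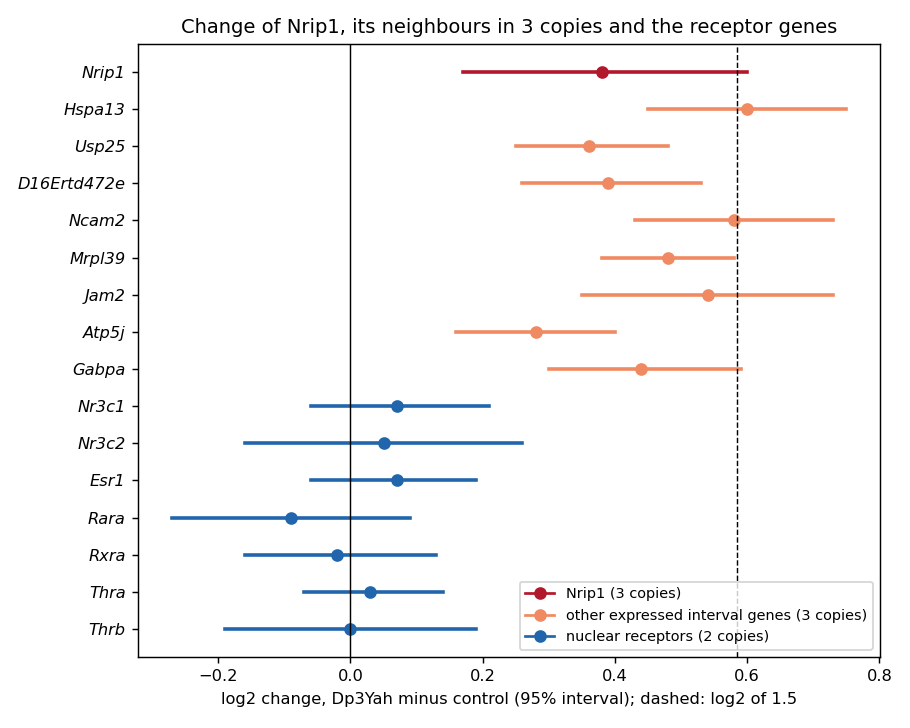
Log2 change (Dp3Yah minus control) and its 95% interval for Nrip1, the 8 other expressed genes in 3 copies and the 7 receptor genes in 2 copies. The dashed line is the log2 ratio of 3 copies to 2 (0.58). The interval of Nrip1 (0.17 to 0.6) lies wholly above 0 and is the widest among the genes in 3 copies shown. The intervals of all 7 receptors include 0.

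The differences in the corticosteroid receptor genes were within the spread of the mice. Nr3c1, the glucocorticoid receptor (chr18:39410545-39519421), had log2 values of 7.81, 7.93, 7.64, 8.03 and 7.84 in Dp3Yah mice, against 7.83, 7.69, 7.77, 7.8 and 7.79 in control mice. The Dp3Yah values reached both above and below the narrow range of the control values. The means were 7.85 ± 0.146 in Dp3Yah mice and 7.78 ± 0.054 in control mice, a difference of 0.07 (SE 0.0642, 95% interval -0.06 to 0.21, limma adjusted p = 0.939). Nr3c2, the mineralocorticoid receptor (chr8:76898083-77245012), had values of 9.2, 9.55, 9.07, 9.23 and 9.07 in Dp3Yah mice, against 9.3, 8.96, 9.36, 9.05 and 9.23 in control mice. Dp3Yah mouse 2 was the highest of all 10, and the other 4 lay within the control range. The difference in Nr3c2 was 0.05 (SE 0.0974, 95% interval -0.16 to 0.26, limma adjusted p = 0.974), with means of 9.23 ± 0.195 in Dp3Yah mice and 9.18 ± 0.169 in control mice, and without Dp3Yah mouse 2 it was -0.034.

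The balance of both corticosteroid receptors was taken within each mouse as the log2 value of Nr3c2 minus that of Nr3c1. It was 1.37 ± 0.168 in Dp3Yah mice and 1.40 ± 0.141 in control mice, a difference of -0.03 (95% interval -0.25 to 0.2, exact permutation test, two-sided, p = 0.722). Since probe sets differ in brightness, this value serves only for the comparison between groups and does not say which receptor is more abundant.

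The thyroid hormone receptor genes had the smallest differences between the groups beside that of Rxra, and neither passed the test. Thra (chr11:98740776-98769006), which encodes the main thyroid hormone receptor of the brain, had log2 values of 11.78, 11.59, 11.84, 11.78 and 11.76 in Dp3Yah mice, against 11.77, 11.7, 11.71, 11.72 and 11.69 in control mice. All values but that of Dp3Yah mouse 2, the lowest, were within a narrow band. The means were 11.75 ± 0.094 in Dp3Yah mice and 11.72 ± 0.032 in control mice, a difference of 0.03 (SE 0.0477, 95% interval -0.07 to 0.14, limma adjusted p = 0.962). Thra overlaps its neighbour Nr1d1 by 1075 bases on the opposite strand, and Nr1d1, a circadian repressor of the receptor family, differed by -0.02. Thrb, the beta receptor (chr14:17659225-18040097), had values of 7.62, 7.29, 7.74, 7.72 and 7.56 in Dp3Yah mice, against 7.49, 7.83, 7.55, 7.54 and 7.49 in control mice. Dp3Yah mouse 2 was the lowest of all 10 and control mouse 2 the highest. Both means of Thrb were 7.58, with SDs of 0.181 in Dp3Yah mice and 0.142 in control mice, and the difference was 0.00 (SE 0.0883, 95% interval -0.19 to 0.19, limma adjusted p = 0.997). Thra minus Thrb was 4.16 ± 0.093 in Dp3Yah mice and 4.14 ± 0.154 in control mice, a difference of 0.03 (95% interval -0.16 to 0.21, exact permutation test, two-sided, p = 0.77).

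Both retinoid receptor genes had small negative differences, neither past the test. Rara, the retinoic acid receptor alpha (chr11:98927800-98974942), had log2 values of 7.18, 7.12, 7.25, 7.21 and 6.82 in Dp3Yah mice, against 7.17, 7.4, 7.15, 7.05 and 7.24 in control mice. Only Dp3Yah mouse 5 fell outside the control range, below it. The difference in Rara was -0.09 (SE 0.0825, 95% interval -0.27 to 0.09, limma adjusted p = 0.945), with means of 7.12 ± 0.171 in Dp3Yah mice and 7.2 ± 0.127 in control mice. Rxra (chr2:27676445-27763319), the shared dimer partner of the thyroid and retinoic acid receptors, had values of 7.58, 7.21, 7.53, 7.5 and 7.34 in Dp3Yah mice, against 7.45, 7.42, 7.42, 7.51 and 7.44 in control mice. The control mice were closely grouped and the Dp3Yah mice lay on both sides of them. The means of Rxra were 7.43 ± 0.154 in Dp3Yah mice and 7.45 ± 0.036 in control mice, a difference of -0.02 (SE 0.0649, 95% interval -0.16 to 0.13, limma adjusted p = 0.989).

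Esr1, the oestrogen receptor alpha (chr10:4611989-5005633), was the only member below the median level of all genes, 6.38. Its log2 values were 5.67, 5.4, 5.46, 5.5 and 5.38 in Dp3Yah mice, against 5.5, 5.34, 5.47, 5.37 and 5.41 in control mice. Dp3Yah mouse 1 was above the control range, Dp3Yah mouse 4 was level with its upper end to the digits given, and the other 3 lay within it. The difference was 0.07 (SE 0.0577, 95% interval -0.06 to 0.19, limma adjusted p = 0.942), with means of 5.48 ± 0.116 in Dp3Yah mice and 5.42 ± 0.068 in control mice. No background was measured here, and arrays understate changes at low values.

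The members also differed in how much they varied among mice of 1 group. The within-group SD was 0.186 for Nrip1, 0.182 for Nr3c2, 0.163 for Thrb and 0.151 for Rara, each at or above the 89.0th percentile of all genes, for which the median was 0.0874. It was 0.112 for Rxra, 0.11 for Nr3c1 and 0.095 for Esr1, and with 0.0701 Thra alone was below the median. For all 7 receptor genes the SD was larger in Dp3Yah mice than in control mice, which was not so for Nrip1. The share of all genes with a larger SD in Dp3Yah mice was not computed. Over all genes, the arrays of Dp3Yah mice 2, 3 and 5 deviated more from the median profile (0.152, 0.115 and 0.124) than any control array (at most 0.111). Those of Dp3Yah mice 1 (0.0945) and 4 (0.0887) did not. The difference in SD of the receptor genes was not tested. Dp3Yah mouse 2 was the highest or lowest of its group for 4 of the 7, and control mouse 2 for 6 of the 7. With intervals of about 0.1 to 0.2 on either side, the receptor data could not show small changes.

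Nrip1 was followed across the 10 mice by genes outside the duplicated segment. After subtraction of the group means, and among 9968 other genes above the median level, the values most like those of Nrip1 were those of Papolg, a poly(A) polymerase (Pearson's r = 0.96, Spearman's rho = 0.95), and Arhgap44, a GTPase-activating protein (r = 0.95, rho = 0.92). Ubr1, a ubiquitin ligase of the N-degron pathway, came next (r = 0.95, rho = 0.90), then the long noncoding RNA Tug1 (r = 0.94, rho = 0.87) and Rab10, a small GTPase of membrane traffic (r = 0.93, rho = 0.89). The high values were those of Dp3Yah mouse 2 and control mice 1 and 2 and the low values those of Dp3Yah mouse 5 and control mice 4 and 5. Without the mice farthest from the median of Nrip1, Dp3Yah mouse 2 and control mouse 2, r was 0.86 to 0.97 for the 5 genes. Their own differences between Dp3Yah and control mice were 0.04 to 0.12, none past the test. These correlations are a description over 10 mice, picked as the highest of all those searched, and the values of a mouse share 1 array and its RNA.

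**Figure D3:**
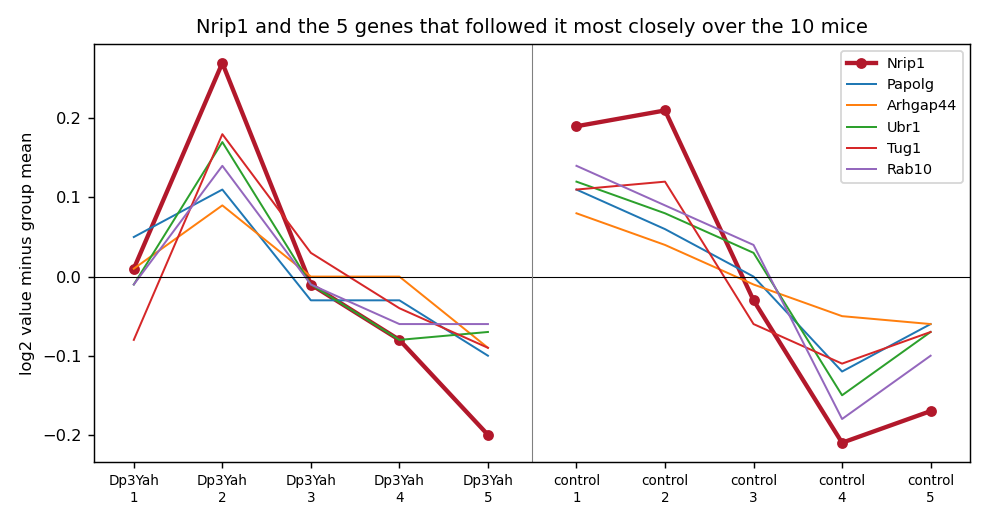
Deviation of each mouse's log2 value from the mean of its group for Nrip1 (thick line, points) and the 5 genes with the highest correlation to it (r = 0.93 to 0.96). Lines only join the values of a gene, mice have no order; all 6 genes are highest within Dp3Yah mice in mouse 2 and lowest in mouse 4 or 5.

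Among the members, Rara (r = 0.5) and Nr3c2 (r = 0.4) varied most nearly in step with Nrip1 in the same sense, and Rxra (r = -0.38) and Thra (r = -0.34) in the opposite sense. Without Dp3Yah mouse 2 and control mouse 2 the values were 0.44 for Rara, 0.52 for Nr3c2, 0.25 for Rxra and 0.6 for Thra, so those of Rxra and Thra turned with these mice. Nr3c1, Esr1 and Thrb had r of -0.03, 0.05 and -0.11 over all 10 mice, and without the same 2 mice -0.06, 0.68 and 0.05, so the value of Esr1 also rested on them. Of the other expressed genes in 3 copies, Hspa13 (r = 0.55) was nearest to Nrip1, and Atp5j (r = -0.83) ran against it.

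Other genes of the receptor pathways were examined in 9 lists of 182 distinct measured genes. Of these 182, 0 passed the limma test, and 5 had an unadjusted p under 0.05, a share of 2.75% beside 5.08% of all genes. Of the 5, 2 were higher and 3 lower, beside 2.49% of all genes higher and 2.59% lower. The rank test counted 10, a share of 5.49% beside 4.58% of all genes. None of the 182 had all 5 Dp3Yah mice above every control mouse, as 0.522% of all genes did, or all 5 below, as 0.391% did. Differences ran between -0.4 for Lcn2, a lipocalin of the acute-phase response, and 0.21 for Hdac3, and so none was as large as that of Nrip1 in the positive direction. Lcn2 varied by an SD of 0.714 among Dp3Yah mice and 0.665 among control mice, and its standard error was 0.35.

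Corepressors other than the members had 13 of 27 measured genes with a positive difference and 14 with a negative one, with a median of -0.01. Hdac3, the histone deacetylase of the NCOR complex, had log2 values of 10.23, 10.23, 10.61, 10.26 and 10.62 in Dp3Yah mice, against 10.17, 10.3, 10.15, 10.17 and 10.14 in control mice. Dp3Yah mice 3 and 5 carried its difference of 0.21 (SE 0.0825, limma unadjusted p = 0.0268, adjusted p = 0.922), and the other 3 lay within the control range. Spen, the corepressor also called SHARP, differed by -0.17, Hdac5 by -0.14 and Cops2, a signalosome subunit that binds thyroid hormone receptors, by 0.11, none past the test. Coactivators had 9 of 30 genes with a positive difference and 21 with a negative one, with a median of -0.02. Pprc1, a coactivator of mitochondrial genes related to PGC-1, differed by -0.13 (limma unadjusted p = 0.0407, adjusted p = 0.922), and Med12, Smarca4 and Ddx17 by -0.09 each. Among all genes 9327 had a positive difference and 10611 a negative one, with a median of -0.00.

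Nuclear receptors outside the members had 13 of 38 positive differences and 25 negative ones, with a median of -0.02. Nr5a1, the steroidogenic factor SF-1, differed by -0.11 (limma unadjusted p = 0.0498, adjusted p = 0.922) at a level below the median of all genes. Rxrg, the gamma retinoid X receptor, differed by 0.18, Rorb, an orphan receptor of cortical neurons, by 0.08 and Nr1h4, the bile acid receptor, by -0.06, none past the test. Metabolic genes that Nrip1 represses in mouse fat and muscle had 4 of 8 positive differences and 4 negative ones, with a median of 0.01. Acadl, a dehydrogenase of fatty acid oxidation, had log2 values of 7.55, 7.48, 7.8, 7.62 and 7.71 in Dp3Yah mice, against 7.49, 7.6, 7.26, 7.5 and 7.39 in control mice, and 3 Dp3Yah mice were above every control mouse. Its difference was 0.18 (SE 0.0728, limma unadjusted p = 0.0257, adjusted p = 0.922). Cidea, a lipid droplet protein, differed by 0.11, Acadvl, another fatty acid dehydrogenase, by 0.05 and Pdk4, a pyruvate dehydrogenase kinase, by -0.13.

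**Figure D4:**
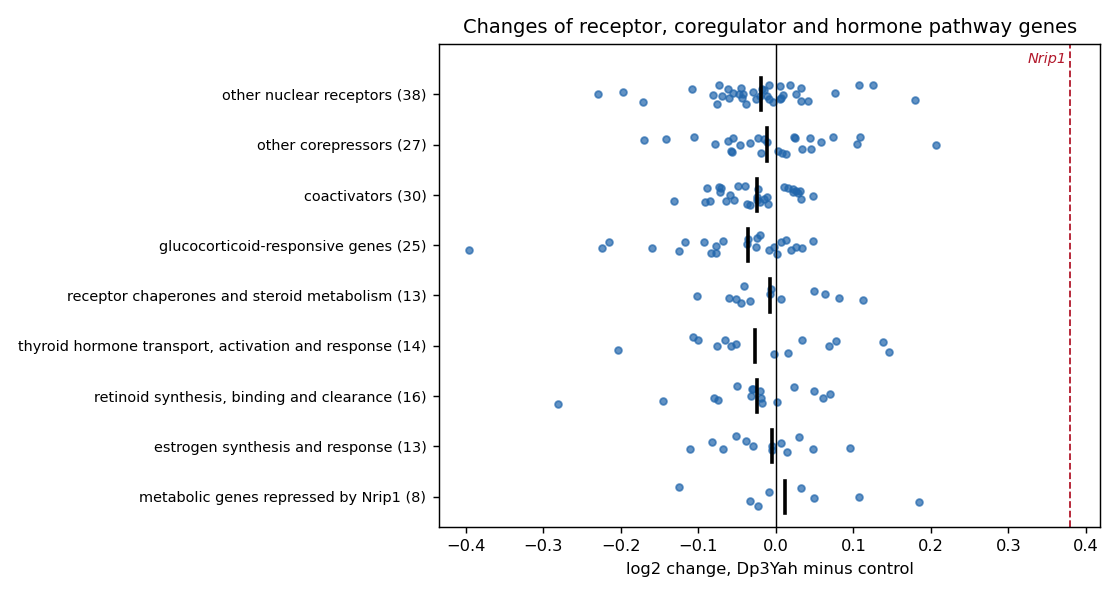
Log2 change (Dp3Yah minus control) of every measured gene in the 9 lists of receptor, coregulator and hormone pathway genes, with list sizes in brackets; black bars are list medians (-0.04 to 0.01) and the dashed line is the change of Nrip1 (0.38). All list genes lie to the left of Nrip1.

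Glucocorticoid-responsive genes had 7 of 25 positive differences and 18 negative ones, with a median of -0.04. The 4 with the smallest p were Bcl6, a transcriptional repressor (-0.22), Errfi1, an inhibitor of EGF receptor signalling (-0.16), the clock gene Per1 (-0.21) and Cebpd, a transcription factor of the acute-phase response (-0.08), and none had an unadjusted p under 0.05 in limma. Per1 varied by an SD of 0.409 in Dp3Yah mice and 0.196 in control mice. Receptor chaperones and enzymes of steroid metabolism had 5 of 13 positive differences and 8 negative ones, with a median of -0.01. Hsd11b1, which regenerates active glucocorticoid in the cell, differed by 0.11, the HSP90 co-chaperone Stip1 by -0.10, Bag1, a co-chaperone of HSP70, by 0.08 and Akr1c14, a hydroxysteroid dehydrogenase, by 0.06.

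Genes of thyroid hormone transport, activation and response had 6 of 14 positive differences and 8 negative ones, with a median of -0.03. Cbr2, a carbonyl reductase, had log2 values of 4.86, 4.65, 4.68, 4.6 and 4.82 in Dp3Yah mice, against 4.85, 4.96, 4.9, 4.92 and 4.99 in control mice. Of the Dp3Yah mice 4 were below every control mouse, at a level well below the median of all genes. Its difference was -0.20 (SE 0.055, limma unadjusted p = 0.00278, adjusted p = 0.922). Camk4, a neuronal kinase, differed by 0.15, Dio3, which inactivates thyroid hormone, by 0.08 and the corepressor gene Hr by -0.08.

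Genes of retinoid synthesis, binding and clearance had 5 of 16 positive differences and 11 negative ones, with a median of -0.02. Aldh1a1, which makes retinoic acid, differed by -0.28, with means of 8.55 ± 0.199 in Dp3Yah mice and 8.83 ± 0.344 in control mice (limma unadjusted p = 0.0766, adjusted p = 0.922). Cyp26b1, which degrades retinoic acid, differed by -0.15, and the retinoid dehydrogenases Dhrs9 and Dhrs3 by -0.08 each. Genes of oestrogen synthesis and response had 5 of 13 positive differences and 8 negative ones, with a median of -0.01. The hydroxysteroid dehydrogenases Hsd17b12 and Hsd17b1 differed by 0.10 and -0.08, the stress-response factor Xbp1 by -0.11 and the survival gene Bcl2 by 0.05, none past the test.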

How the data were processed

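Expression was read on Affymetrix arrays of the Mouse Gene 1.0 ST type, from the hippocampal RNA of 5 Dp3Yah and 5 control mice. The deposited values were log2 intensities that the authors had normalised with RMA, and the submitters' processing notes name limma and the build mm10. No scanner files were used here, so background and detection could not be set, and the number of arrays limits the precision. Of 35556 probe sets, 21789 had 1 gene in the platform annotation, 1621 several and 12146 were unnamed here, and 19856 of the 19938 resulting genes matched RefSeq (GRCm38.p6). Where a gene had several probe sets (999 genes), the one with the highest mean was used. Probe sets annotated to 1 gene were not found here for Ncor1. No pair of arrays held identical values.

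All genes were fitted in limma 3.58.1 (R 4.3.3) on group alone, with an adjusted p threshold of 0.05 (Benjamini-Hochberg), and the method was tested on simulated data. A rank test of fold changes (trim 0.25, f under 0.025 or over 0.975), a test of the kind the study's methods name, was an alternative. Differences between genes within a mouse were compared by exact permutation of all groupings of the mice, and 3 such differences were tested, with no adjustment. The means of the cell type marker lists were compared in the same way, also with no adjustment. The alternatives were a replicate block, other probe set rules, a filter at the median level, 2 other normalisations, other variance and array weights, a choroid plexus covariate and leaving out each mouse. Besides the members, the text names the 4 genes of each list with the smallest unadjusted p, the 5 genes most like Nrip1 and the other expressed genes of the duplicated segment. Nr1d1 and Lcn2 were singled out after their values were seen. The members and lists were chosen with earlier results of these data known.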

Additional observations from a re-analysis of the deposited data

Results flagged for a closer look

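For Thrb, control mouse 2 lay apart from the other control mice, at 7.83 against 7.49 to 7.55. Its gap to the nearest of the others was 0.813 of the whole range of the group, above the critical value of 0.71 in Dixon's test for 5 samples. It was the only one of 22 sets of 5 values to pass, and chance alone passes about 1 in 20. These sets come from the same mice and are not independent.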

How the results depend on the processing

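The number of genes with an adjusted p under 0.05 was 3, and it was 6 with trended and robust variance, 5 with array weights, 914 past the threshold of the rank test, which has no adjustment, and 1 to 4 when 1 mouse was left out (1 without Dp3Yah mouse 4 or control mouse 3, 4 or 5, and 2 without Dp3Yah mouse 5). Nrip1 (0.383) was 0.315 without Dp3Yah mouse 2 and up to 0.436 without another mouse, with adjusted p of 0.614 to 0.999, and 0.373 to 0.394 under the other limma settings, with adjusted p of 0.234 to 0.945. No limma setting gave Nrip1 an adjusted p under 0.05. Without adjustment, its p in the main setting was 0.00208 in limma and 0.0238 by exact permutation. Nrip1 was past the threshold of the rank test (f = 0.998), where f places a gene relative to all genes on a normal curve and sets no error rate. Labels give both groups the same replicate numbers. The deviations of same-numbered mice had correlations of 0.0831, -0.417, 0.0866, 0.292 and 0.372 for numbers 1 to 5, above 0.1 in 2 of 5 pairs. With the replicate block the count was 3 (Gabpa, Hspa13 and Mrpl39), Nrip1 had an adjusted p of 0.234, and its difference from its neighbours had p = 0.25 by exact permutation within pairs. Nr3c1, Esr1, Rara and Thra kept their sign and passed under no setting run (Esr1 was not in the fit above the median level), but leaving out 1 mouse moved their values, to between 0.029 (without Dp3Yah mouse 4) and 0.127 (Dp3Yah mouse 3) for Nr3c1, 0.018 (Dp3Yah mouse 1) and 0.091 (Dp3Yah mouse 5) for Esr1, -0.124 (control mouse 4) and -0.013 (Dp3Yah mouse 5) for Rara, and 0.01 (Dp3Yah mouse 3) and 0.072 (Dp3Yah mouse 2) for Thra. Reversed signs, all of values not past a test, were -0.034 and -0.008 for Nr3c2 without Dp3Yah mouse 2 and without control mouse 2 (-0.034 to 0.091 over all mice left out in turn). Rxra was 0.023 with array weights, on the higher side in the rank test (f = 0.596), and reached 0.04 without Dp3Yah mouse 2, 0.009 without Dp3Yah mouse 5 and 0.0 without control mouse 4 (lowest -0.053). Thrb was between -0.034 and 0.078 without 1 mouse, with -0.006, -0.029, -0.018, -0.004, -0.007 and -0.02 among the reversed values, and Xbp1 was -0.171 to 0.003, the last without control mouse 1. Leaving out 1 mouse gave -0.0887 to 0.0174 for Nr3c2 minus Nr3c1, -0.0372 to 0.0635 for Thra minus Thrb, and -0.157 to -0.0221 for Nrip1 minus its neighbours. Among the list genes, some were past the threshold of the rank test but had no adjusted p under 0.05 in limma. On the higher side these were Acadl (f = 0.991), Camk4 (0.983), Hdac3 (0.986) and Rxrg (0.987). On the lower side they were Aldh1a1 (0.00425), Bcl6 (0.00517), Cbr2 (0.00659), Hdac5 (0.0228), Nr5a1 (0.0192) and Lcn2 (0.0205). The cause of these shifts was not tested. Nrip1 minus Ncor1 was not run, since Ncor1 was not analysed here.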
